A study of Danio rerio with 12 samples.

Results

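The genes described here are 10 parts of the machinery that shortens the poly(A) tails of messenger RNA: the adaptors BTG4 and tob1a, the CCR4-NOT subunits cnot1, cnot2, cnot3a, cnot6a, cnot7, cnot8 and cnot10, and pan3 of the PAN2-PAN3 deadenylase. They were chosen by name and were looked up among the 33737 Ensembl gene IDs of the deposited tables. The gene table held 7 of them under their own symbol, and tob1a, cnot6a and cnot3a under TOB1, CNOT6 and CNOT3, which RefSeq lists as their synonyms. Each name led to a single ID, and all 10 passed the filter on low values, which kept the 17053 genes that reached an RPKM (reads per kilobase of gene length and per M reads) of 1 in any of the 6 tables. The study sequenced polyadenylated RNA of whole zebrafish embryos that were homozygous mutant for ddx3xb (ddx3xb-/-, mutant) or wild type (ddx3xb+/+, control), at 2, 4 and 6 hours post fertilization (hpf). The labels list 12 samples, 2 for each genotype at each age, and no treatment. They name neither the ddx3xb allele, the number of embryos in a sample, nor whether the mothers carried the mutation. The deposited tables hold 1 RPKM value per gene for each genotype and age, so every value below stands without a standard deviation, no p-value can be given, and a difference is described by its size alone.

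Deadenylation is the step with which the decay of most messenger RNAs begins. CCR4-NOT carries the nucleases that remove the tail, arranged around the scaffold CNOT1, while PAN2-PAN3 trims long tails ahead of it. BTG and TOB proteins bind CCR4-NOT nucleases, and BTG4 is known from mouse and zebrafish as the egg's own adaptor, which brings CCR4-NOT to RNA laid down by the mother. In zebrafish such RNA is cleared while the embryo's genome takes over transcription, between the cleavage stages and gastrulation.

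RNA of the targeted gene was lower in mutant than in control embryos at each age. ddx3xb had 0.697, 18.8 and 48.8 RPKM in mutant embryos at 2, 4 and 6 hpf, and 325, 318 and 194 RPKM in control embryos. The log2 difference narrowed with age, from -7.59 to -4.01 and -1.97, and the cause of the rise within mutant embryos was not tested. Depths worked out from the step size of low RPKM values ran from 37.8 to 73.0 M reads per library. Egg RNAs and gastrula RNAs differed with genotype at 6 hpf, so that at a fixed age a difference between genotypes and a difference in the stage reached cannot be told apart. The egg RNA buc had 61.7 RPKM in mutant embryos and 6.13 in control embryos at 6 hpf, gdf9 had 7.68 and 0.686, and zar1 had 30.4 and 11.7. Of these, zar1 was already higher in mutant embryos at 2 hpf (45.7 and 28.3) and at 4 hpf (53.8 and 33.4). At 2 hpf buc was lower in mutant embryos (251 and 301) and gdf9 was close to control (24.9 and 23.8). The gastrula RNA cdx4 had 11.5 RPKM in mutant embryos and 156 in control embryos at that age, and msgn1 had 14.0 and 125. The mesoderm gene tbx16 had 179 RPKM in mutant and 132 in control embryos, and the keratin gene krt4 had 860 and 1465. The same limit holds at 4 hpf, where tbx16 had 8.91 RPKM in mutant and 55.1 in control embryos. At that age krt4 had 3.98 and 38.4 RPKM, and buc had 246 and 138. The low 4 hpf values of msgn1 (4.66 and 0.762) and cdx4 (0.584 and 0.214) were higher in mutant embryos.

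BTG4 and cnot8 were higher in mutant than in control embryos at 6 hpf, and cnot7 was higher in mutant embryos at 4 hpf. A gene is called higher or lower here when its values differ by at least 1 on the log2(RPKM + 1) scale, a scale that understates the differences of weakly expressed genes. At 2 hpf 0 of the 10 genes were called higher and 0 lower in mutant embryos, where 4.14% of all genes tested were called higher and 3.34% lower. At 4 hpf 1 was higher and 0 were lower, beside 3.79% and 6.31% of all genes. At 6 hpf 2 were higher and 0 were lower, beside 18.3% and 8.91% of all genes. The count at 6 hpf is thus close to the share among all genes. The BTG4 difference was the largest of the 10 genes, and 0.416% of all genes tested reached or passed it. Its size was not particular to BTG4 among genes abundant at 2 hpf. LSM14B (3.53) and TENT5C (3.32) differed further at 6 hpf, while cth1 (2.31) and pabpn1l (2.23) differed somewhat less.

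Over all genes, the balance at 6 hpf depended on the scaling. As deposited, 3114 genes were higher and 1519 lower in mutant embryos. Rescaling the tables by trimmed means gave 2354 higher and 2705 lower, with a shift of -0.26 in the median of all genes tested. Quantile normalization gave 2536 higher and 2305 lower, with a shift of -0.15. BTG4 and cnot8 were called at 6 hpf under each of these scalings. As deposited, the median log2 difference of the 10 genes was -0.16 at 2 hpf, -0.19 at 4 hpf and 0.37 at 6 hpf. Over all genes tested it was 0.01, 0.01 and 0.22. At 6 hpf 7 of the 10 genes were above 0 as deposited, as were 59.8% of all genes. With trimmed-mean rescaling cnot2 (-0.02) and cnot10 (-0.25) fell below 0 and cnot6a was at 0.04. The median of the 10 genes at 6 hpf thus also depends on the scaling.

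**Figure D1:**
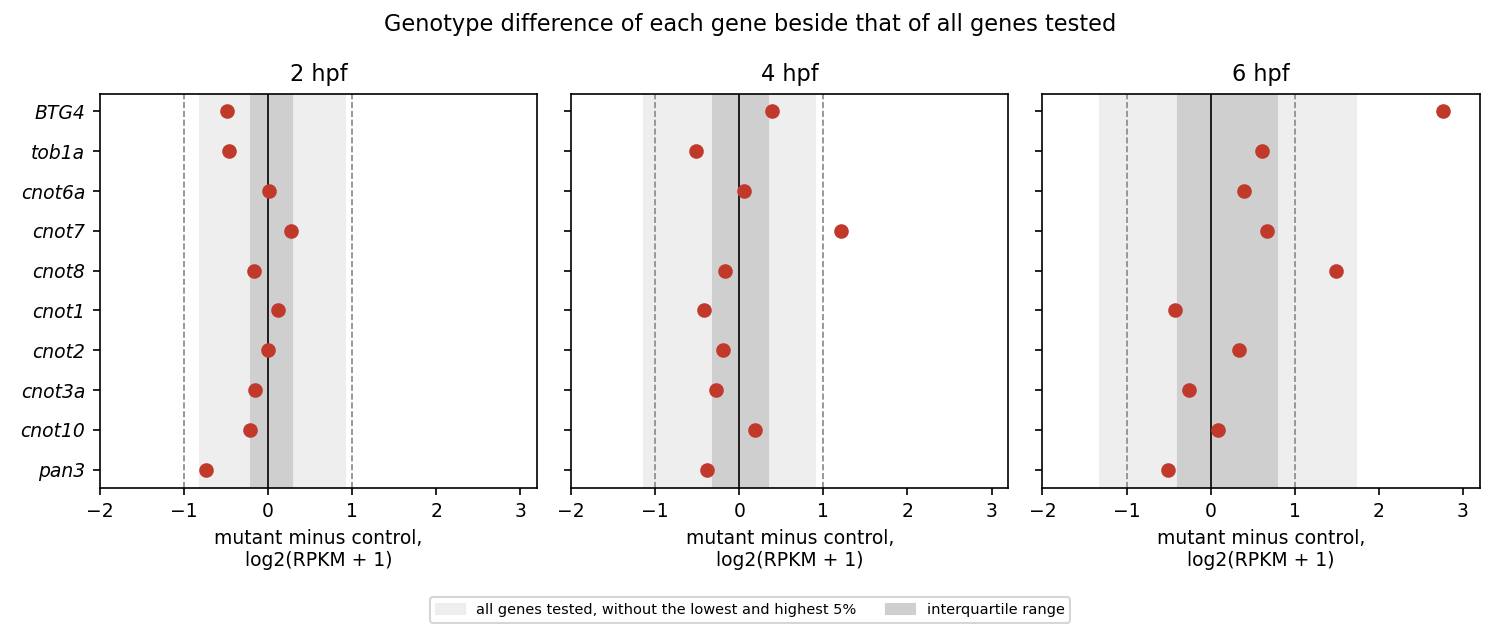
Mutant minus control difference in log2(RPKM + 1) of the 10 genes (red points) at 2, 4 and 6 hpf, with the range of all genes tested as grey bands and the threshold of 1 as dashed lines. The points past the threshold are cnot7 at 4 hpf (1.21) and BTG4 (2.77) and cnot8 (1.49) at 6 hpf; the points of cnot6a at 2 hpf and of cnot2 and cnot10 at 6 hpf change sides of 0 under other scalings.

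Among the adaptors, BTG4 (ENSDARG00000035171) was the gene with the widest course. It had 257, 262 and 47.8 RPKM in mutant embryos at 2, 4 and 6 hpf, and 362, 200 and 6.16 RPKM in control embryos. Mutant embryos held less of it than controls at 2 hpf, more at 4 hpf and 7.76 times as much at 6 hpf. The log2 difference between genotypes was -0.49 at 2 hpf, 0.38 at 4 hpf and 2.77 at 6 hpf, and it was 2.46 at 6 hpf with trimmed-mean rescaling and 2.47 with quantile normalization. Poly(A) selection was used, so fewer molecules and molecules with shorter tails cannot be told apart, nor can fewer cells and less RNA per cell in whole embryos.

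The course of BTG4 within each genotype differed mainly after 4 hpf. At 4 hpf mutant embryos held 102% of their 2 hpf level, a difference of 0.02 that is at or just under 0 with trimmed-mean rescaling or quantile normalization, and control embryos held 55.3%. At 6 hpf the share of the 2 hpf level was 18.6% in mutant embryos and 1.70% in control embryos. Between 4 and 6 hpf BTG4 fell in both genotypes, with log2 differences of -2.43 in mutant embryos and -4.81 in control embryos. Of all genes tested, 0.235% fell at least as far in mutant embryos over that interval and 0.0469% in control embryos. At 2 hpf BTG4 stood above 98.8% of the genes tested in mutant embryos and above 99.3% in control embryos, and at 6 hpf above 88.8% in mutant and 57.6% in control embryos.

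The other adaptor, tob1a (ENSDARG00000032619), is the zebrafish TOB1 gene whose protein links CCR4-NOT to poly(A)-binding protein. It had 88.3, 121 and 81.8 RPKM in mutant embryos at 2, 4 and 6 hpf, and 122, 173 and 53.0 RPKM in control embryos. As deposited, mutant embryos thus held less tob1a RNA at the earlier ages and more at 6 hpf, with log2 differences of -0.46, -0.51 and 0.62, none past the threshold. At 6 hpf 31.8% of all genes tested were at least as far above control. That difference was 0.26 with trimmed-mean rescaling and 0.47 with quantile normalization. The 4 hpf level was the highest of the course in both genotypes. At 6 hpf mutant embryos held 92.7% of their 2 hpf level, a difference of -0.11 that turned to 0.27 with trimmed-mean rescaling, and control embryos held 43.4%.

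The catalytic subunits did not share a course. cnot7 and cnot8 encode the CAF1-type nucleases, which occupy the same place in the complex, and cnot6a encodes a CCR4-type nuclease. cnot8 (ENSDARG00000020043) had 288, 249 and 147 RPKM in mutant embryos at 2, 4 and 6 hpf, and 323, 281 and 51.4 RPKM in control embryos. The genotypes were close at 2 and 4 hpf, with differences of -0.16 and -0.17, and apart at 6 hpf, where mutant embryos held 2.85 times the control level. The 6 hpf difference was 1.49 log2, with 1.14 after trimmed-mean rescaling and 1.23 after quantile normalization, and 7.88% of all genes tested were at least as far above control. At 6 hpf cnot8 kept 50.9% of its 2 hpf level in mutant embryos and 15.9% in control embryos.

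The course of cnot7 (ENSDARG00000032116) parted by genotype earlier than that of cnot8, at 4 hpf. It had 30.4, 15.9 and 4.30 RPKM in mutant embryos at 2, 4 and 6 hpf, and 25.0, 6.28 and 2.33 RPKM in control embryos. Mutant embryos were above controls at every age, and the gap was widest at 4 hpf, with log2 differences of 0.27, 1.21 and 0.67. The 4 hpf difference was matched or passed by 2.08% of all genes tested, and stayed past the threshold at 1.17 with trimmed-mean rescaling and 1.16 with quantile normalization. By 4 hpf mutant embryos held 52.2% of their 2 hpf level and control embryos 25.1%, and by 6 hpf 14.1% and 9.29%. The lowest value of all members, that of cnot7 in control embryos at 6 hpf, corresponds to 95.0 and 87.9 reads per kilobase at the depths of its 2 libraries.

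cnot6a (ENSDARG00000008255) had 84.2, 110.3 and 104.9 RPKM in mutant embryos at 2, 4 and 6 hpf, and 83.4, 106 and 79.4 RPKM in control embryos. The genotype differences were 0.01, 0.06 and 0.40, and with trimmed-mean rescaling that at 2 hpf turned to -0.05 and that at 6 hpf became 0.04. On the deposited scale its highest value was 1.31 times its lowest in mutant embryos and 1.34 times in control embryos, against 1.96 and 6.28 times for cnot8 and 7.07 and 10.8 times for cnot7. Its direction over time depended on the scaling. From 4 to 6 hpf it changed by -0.07 in mutant and -0.41 in control embryos as deposited, and by 0.33 in both with trimmed-mean rescaling.

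**Figure D2:**
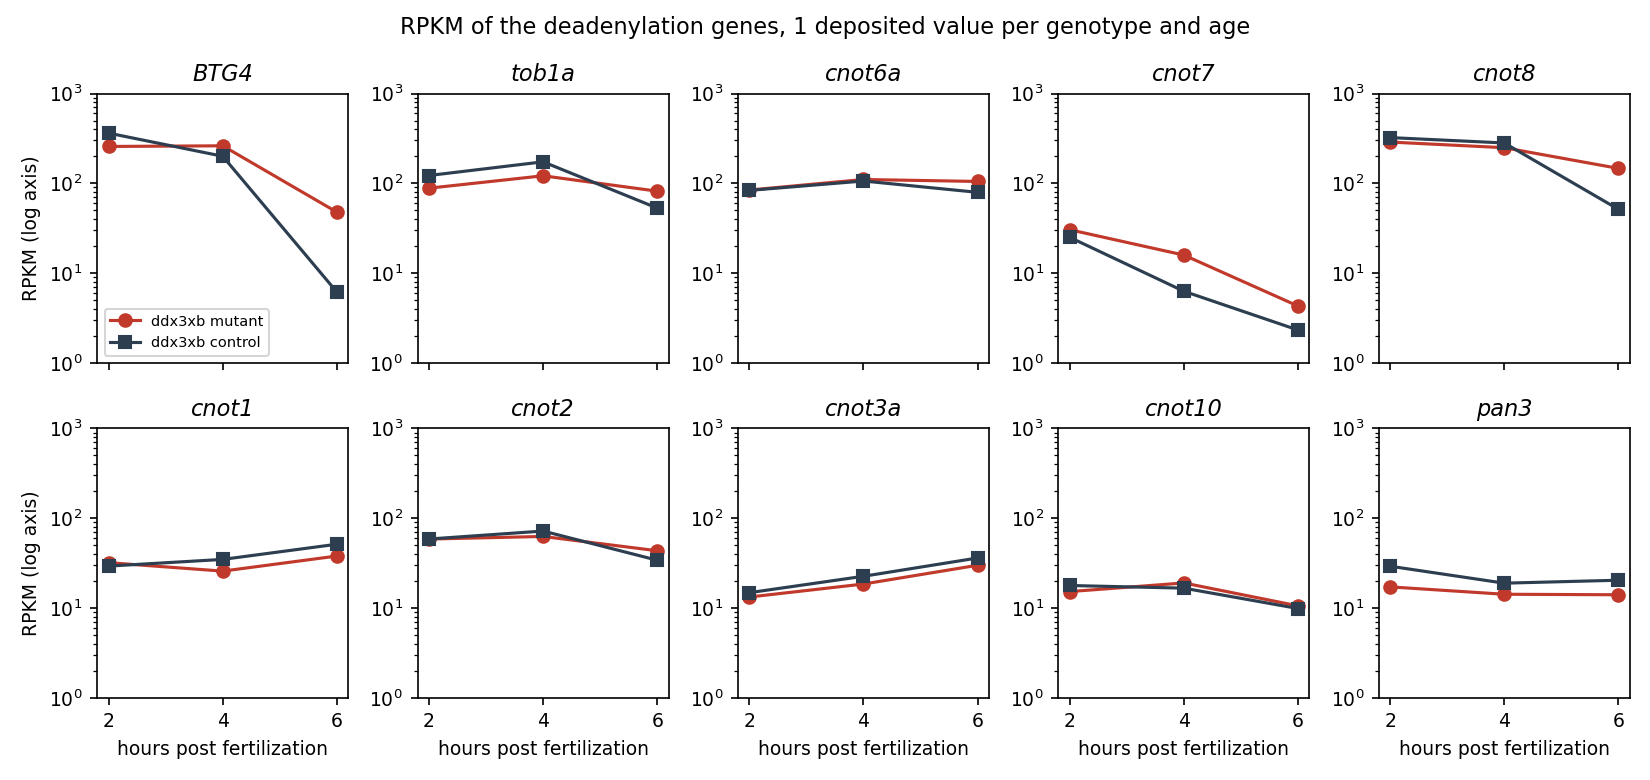
RPKM of each of the 10 genes (log axis) at 2, 4 and 6 hpf in mutant (red circles) and control embryos (dark squares), 1 deposited value per point. In control embryos BTG4, cnot7 and cnot8 span the widest ranges, and BTG4 ends at 47.8 RPKM in mutant and 6.16 in control embryos.

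The scaffold and regulatory subunits were not called between genotypes at any age. cnot1 (ENSDARG00000004174), the scaffold on which the complex is built, had 32.0, 25.8 and 37.9 RPKM in mutant embryos at 2, 4 and 6 hpf, and 29.3, 34.8 and 51.3 RPKM in control embryos. The mutant level was 109% of control at 2 hpf, 74.0% at 4 hpf and 73.9% at 6 hpf, and the differences at the later ages were -0.42 and -0.43. With trimmed-mean rescaling the cnot1 difference at 6 hpf was -0.79. cnot3a (ENSDARG00000007135) had 13.3, 18.5 and 29.9 RPKM in mutant embryos, and 14.8, 22.6 and 36.1 RPKM in control embryos. It was below control at each age, by -0.15, -0.27 and -0.26 log2, and it climbed in both genotypes. With trimmed-mean rescaling the cnot3a difference at 6 hpf was -0.62.

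cnot2 (ENSDARG00000061802), which pairs with CNOT3 in the NOT module, had 58.6, 62.6 and 43.4 RPKM in mutant embryos at 2, 4 and 6 hpf, and 58.7, 71.9 and 34.1 RPKM in control embryos. Its difference of 0.34 at 6 hpf became -0.02 with trimmed-mean rescaling. cnot10 (ENSDARG00000058528), which with CNOT11 forms a module at the scaffold's N-terminal end, had 15.2, 19.0 and 10.6 RPKM in mutant embryos, and 17.8, 16.6 and 9.88 RPKM in control embryos. Its difference of 0.09 at 6 hpf became -0.25 with trimmed-mean rescaling and -0.20 with quantile normalization, so that no direction can be given for cnot2 or cnot10 at that age.

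pan3 (ENSDARG00000031637), the subunit that recruits the PAN2 nuclease to RNA, was below control at all 3 ages. It had 17.2, 14.2 and 14.0 RPKM in mutant embryos at 2, 4 and 6 hpf, and 29.2, 18.9 and 20.4 RPKM in control embryos. The mutant level was 58.9%, 75.3% and 68.9% of control. The log2 differences of -0.73, -0.39 and -0.51 did not pass the threshold at any age. With trimmed-mean rescaling the 6 hpf difference was -0.86, also short of it. The difference at 2 hpf was the largest of the 10 genes at that age, and 6.10% of all genes tested were at least as far below control.

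Between 2 and 4 hpf, 0 members were called in either direction in mutant embryos, where 3.21% of all genes were called higher at the later age and 0.264% lower. In control embryos cnot7 alone among the members was called, as lower, by -1.84 log2. Over all genes 8.79% were higher and 2.84% lower in control embryos at 4 hpf, or 1499 and 484 genes, and 1187 and 632 with quantile normalization. The cnot7 difference over this interval in mutant embryos was -0.90, just short of the threshold, and 0.487% of all genes fell at least as far there.

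Between 4 and 6 hpf, BTG4 and cnot7 fell in mutant embryos, 2 of the 10 genes, and BTG4, tob1a, cnot7, cnot8 and cnot2 fell in control embryos, 5 of the 10. Over all genes 18.9% fell in mutant embryos and 35.1% in control embryos, while 12.3% rose in mutant and 17.3% in control embryos, as 0 members did in either genotype. In mutant embryos 2090 genes rose and 3229 fell as deposited; trimmed-mean rescaling gave 2779 and 1306, and quantile normalization 2302 and 1973. In control embryos 2952 rose and 5994 fell as deposited; trimmed-mean rescaling gave 4783 and 3691, and quantile normalization 3965 and 4436. The median of all genes tested shifted by 0.30 and 0.17 in mutant embryos under the 2 rescalings, and by 0.52 and 0.31 in control embryos.

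Some of the falls in control embryos depended on that choice. cnot8 changed by -0.76 in mutant embryos, short of the threshold, and by -2.43 in control embryos. tob1a changed by -0.56 in mutant and -1.69 in control embryos, and the control value was -0.95 with trimmed-mean rescaling. cnot7 changed by -1.67 in mutant and -1.13 in control embryos, and the control value was -0.55 and -0.72 under the 2 rescalings. cnot2 changed by -0.52 in mutant and -1.06 in control embryos, with -0.32 and -0.69 under the rescalings in controls. The falls of BTG4 and cnot8 in control embryos were called under each scaling.

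For the 5 genes that fell in controls, the mutant level at 6 hpf lay between the control levels at 4 and 6 hpf as deposited. With trimmed-mean rescaling the cnot2 level in mutant embryos lay just under the control level at 6 hpf, by -0.02. The position of that mutant level between the control levels at 4 and 6 hpf was measured on the log2 scale of the deposited values. Counted from the control level at 4 hpf, it was 42.5% of the way for BTG4, 63.6% for tob1a, 40.5% for cnot7, 38.5% for cnot8 and 67.7% for cnot2. It does not measure the fall within mutant embryos from 4 to 6 hpf, which for cnot7 (-1.67) was larger than in control embryos (-1.13). Over all 5994 genes that fell in control embryos in that interval the median was 47.1%, with quartiles of 30.9% and 65.2%. The shares of cnot7, cnot2 and tob1a rest on control falls that were short of the threshold under 1 or both rescalings. These percentages share the control tables with the choice of the genes and are a description.

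Over the whole course from 2 to 6 hpf, cnot3a was the member that rose, by 1.12 log2 in mutant embryos and 1.23 in control embryos. In mutant embryos 15.5% of all genes rose over that span and 19.9% fell, and BTG4 (-2.40) and cnot7 (-2.57) were the 2 members that fell. cnot8, at -0.97 in mutant embryos, was just short of the threshold, and passed it at -1.20 with quantile normalization and -1.03 on the TPM scale. In control embryos 24.1% rose and 35.6% fell, and the 4 members that fell were BTG4 (-5.66), cnot7 (-2.97), cnot8 (-2.63) and tob1a (-1.19). As deposited, 2638 genes rose and 3396 fell in mutant embryos and 4108 and 6078 did so in control embryos, and with trimmed-mean rescaling the counts were 3283 and 1814 in mutant and 5473 and 4311 in control embryos. The tob1a fall in control embryos was -0.51 with trimmed-mean rescaling, short of the threshold. cnot1 changed by 0.24 in mutant and 0.79 in control embryos over the same span, and its control value was 1.46 with trimmed-mean rescaling and 1.11 with quantile normalization. pan3 changed by -0.27 in mutant and -0.50 in control embryos, and these turned to 0.09 and 0.16 with trimmed-mean rescaling, so that no direction can be given for it.

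The genotype difference shifted between 4 and 6 hpf by at least 1 log2 for 3 members, each towards a higher level in mutant embryos, and for 0 members towards a lower one. The shift was 2.38 for BTG4, 1.67 for cnot8 and 1.13 for tob1a, where the tob1a shift was 0.79 with trimmed-mean rescaling. Over all genes 17.9% shifted towards higher and 8.19% towards lower, or 3045 and 1396 genes; trimmed-mean rescaling gave 2188 and 2393, and quantile normalization 2490 and 2196. Between 2 and 4 hpf 0 members shifted in either direction, where 1.38% of all genes shifted towards higher and 4.53% towards lower in mutant embryos. The cnot7 shift of 0.94 in that earlier interval was the largest of the members, and 1.69% of all genes shifted at least as far. The BTG4 shift was close to it, at 0.88, which 2.20% of all genes reached or passed.

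The order of the 10 levels in RPKM, which is per gene length, changed with age. Because poly(A) selection was used, fewer molecules and shorter tails cannot be told apart in this order. BTG4, cnot8, tob1a and cnot6a held the top 4 places in both genotypes at 2 and 4 hpf. At 6 hpf the order in mutant embryos ran cnot8, cnot6a, tob1a, BTG4, cnot2, cnot1, cnot3a, pan3, cnot10 and cnot7. In control embryos at 6 hpf it ran cnot6a, tob1a, cnot8, cnot1, cnot3a, cnot2, pan3, cnot10, BTG4 and cnot7. BTG4 thus stood just above cnot2 in mutant embryos and next to last in control embryos. Neighbours in these orders cannot be separated, since no spread between replicates comes with the values. The highest member exceeded the lowest 21.7, 18.4 and 34.1 times in mutant embryos at 2, 4 and 6 hpf, and 24.4, 44.8 and 34.1 times in control embryos.

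Several members have a close relative in the genome, and the balance within such pairs moved with age and genotype. How the authors' counting treats reads shared by near-identical copies is not given in the sources used here, so the split within a pair is uncertain. cnot3a made up 27.3%, 33.9% and 61.2% of the summed RPKM of cnot3a and cnot3b in mutant embryos at 2, 4 and 6 hpf, and 30.6%, 38.2% and 81.6% in control embryos. At 6 hpf cnot3b had 19.0 RPKM in mutant and 8.16 RPKM in control embryos, a difference of 1.12, where cnot3a was slightly below control. The summed RPKM of the pair was 48.9 in mutant and 44.2 in control embryos at that age.

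Within tob1a and tob1b the shares differed between genotypes at each age, though neither gene's genotype difference reached the threshold at 2 or 4 hpf. tob1a made up 40.0%, 49.4% and 58.1% of the pair's RPKM in mutant embryos at 2, 4 and 6 hpf, and 57.9%, 68.5% and 68.7% in control embryos. tob1b had 132, 124 and 59.0 RPKM in mutant embryos, and 88.9, 79.9 and 24.2 RPKM in control embryos. Its genotype differences of 0.57, 0.63 and 1.25 were above 0 at all ages, while those of tob1a were below 0 at 2 and 4 hpf. The sums of the pair were close at 2 and 4 hpf, with 221 and 246 RPKM in mutant embryos and 211 and 253 RPKM in control embryos, and apart at 6 hpf, with 141 and 77.2 RPKM.

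cnot8 held most of the summed RPKM of cnot8 and cnot7 throughout. It made up 90.4%, 94.0% and 97.2% of that sum in mutant embryos at 2, 4 and 6 hpf, and 92.8%, 97.8% and 95.7% in control embryos. cnot6a likewise made up between 91.9% and 97.9% of the sum with cnot6l, another CCR4-type gene, over the 6 tables. pan3 made up 44.7%, 42.8% and 55.1% of the sum with its partner pan2 in mutant embryos, and 61.6%, 51.4% and 72.1% in control embryos. The PAN2 nuclease gene had 21.3, 19.0 and 11.4 RPKM in mutant embryos, and 18.2, 17.9 and 7.89 RPKM in control embryos.

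**Figure D3:**
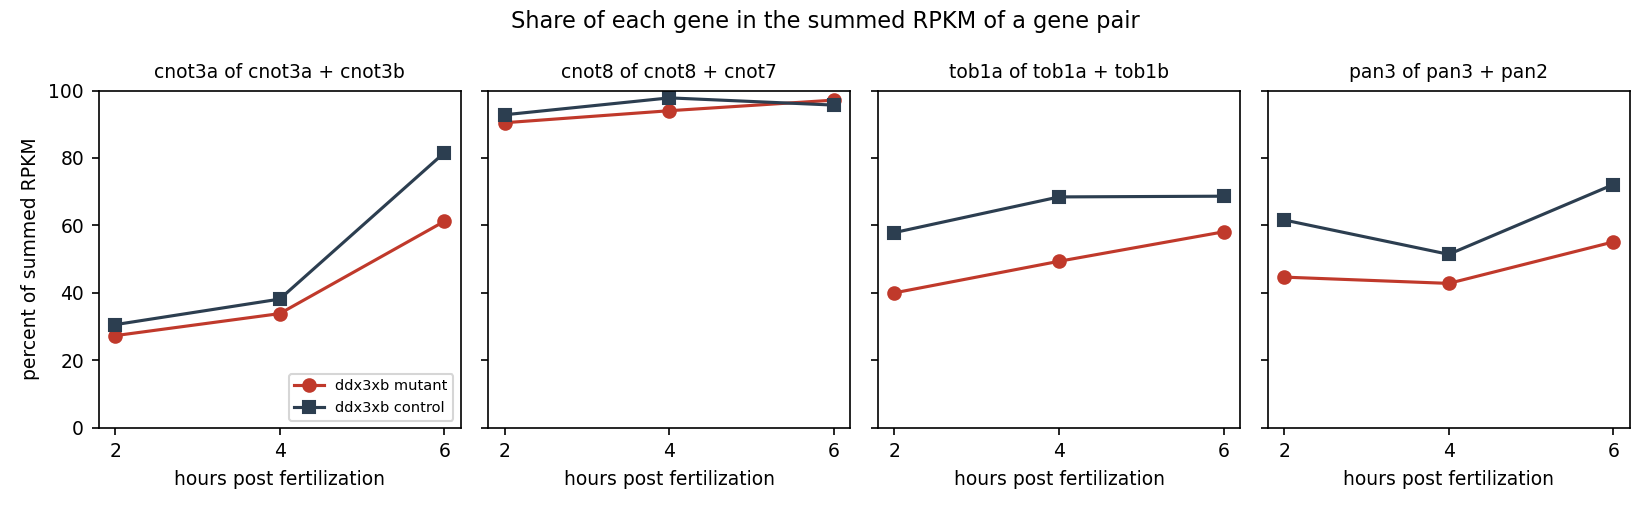
Share of the summed RPKM of a gene pair held by its named gene (percent) at 2, 4 and 6 hpf in mutant (red circles) and control embryos (dark squares), 1 deposited value per point. The cnot3a share at 6 hpf is 61.2% in mutant and 81.6% in control embryos, while cnot8 stays above 90% of its pair in all 6 tables.

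Of the other BTG and TOB genes, btg3 and tob1b were called higher in mutant embryos at 6 hpf, 2 of 4 tested, and 0 were lower. Over all genes 18.3% were higher and 8.91% lower at that age, shares that trimmed-mean rescaling turned to 13.8% and 15.9% and quantile normalization to 14.9% and 13.5%. Under either rescaling 1 of the 4 was higher. btg3 had 353, 314 and 111 RPKM in mutant embryos at 2, 4 and 6 hpf, and 367, 238 and 41.5 RPKM in control embryos, with a 6 hpf difference of 1.40. btg2 had 231 RPKM in mutant and 137 in control embryos at 6 hpf, a difference of 0.76. btg1 went the other way over time: it had 5.04, 11.8 and 32.1 RPKM in mutant embryos, and 6.77, 27.8 and 43.6 RPKM in control embryos. It was called lower in mutant embryos at 4 hpf, with a difference of -1.17. BTG4 was thus higher in RPKM than btg1 in mutant embryos at 6 hpf and lower than btg1 in control embryos.

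Of the other CCR4-NOT and CCR4-like genes, 3 of 9 were called higher in mutant embryos at 6 hpf and 0 lower, namely cnot3b, tnks1bp1 and an ID named CNOT4, beside 18.3% and 8.91% of all genes. With trimmed-mean rescaling or quantile normalization the counts were 1 higher and 1 lower. CNOT4, a ubiquitin ligase, is named for 2 IDs: ENSDARG00000007639 had 18.3 RPKM in mutant and 4.10 RPKM in control embryos at 6 hpf, and ENSDARG00000007045 had 16.9 and 18.7 RPKM. cnot9, which binds recruiting proteins, had 37.2, 36.2 and 40.1 RPKM in mutant embryos at 2, 4 and 6 hpf, and 41.5, 41.5 and 39.5 RPKM in control embryos. cnot11, the partner of cnot10, had 16.0, 15.1 and 13.8 RPKM in mutant embryos and 11.9, 13.1 and 14.3 RPKM in control embryos. Of the other deadenylase genes, angel1 and ANGEL2 were called higher at 6 hpf, 2 of 5, and 0 lower, beside the same shares of all genes. Under either rescaling 1 of the 5 was higher, so that these counts of few genes are described only.

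**Figure D4:**
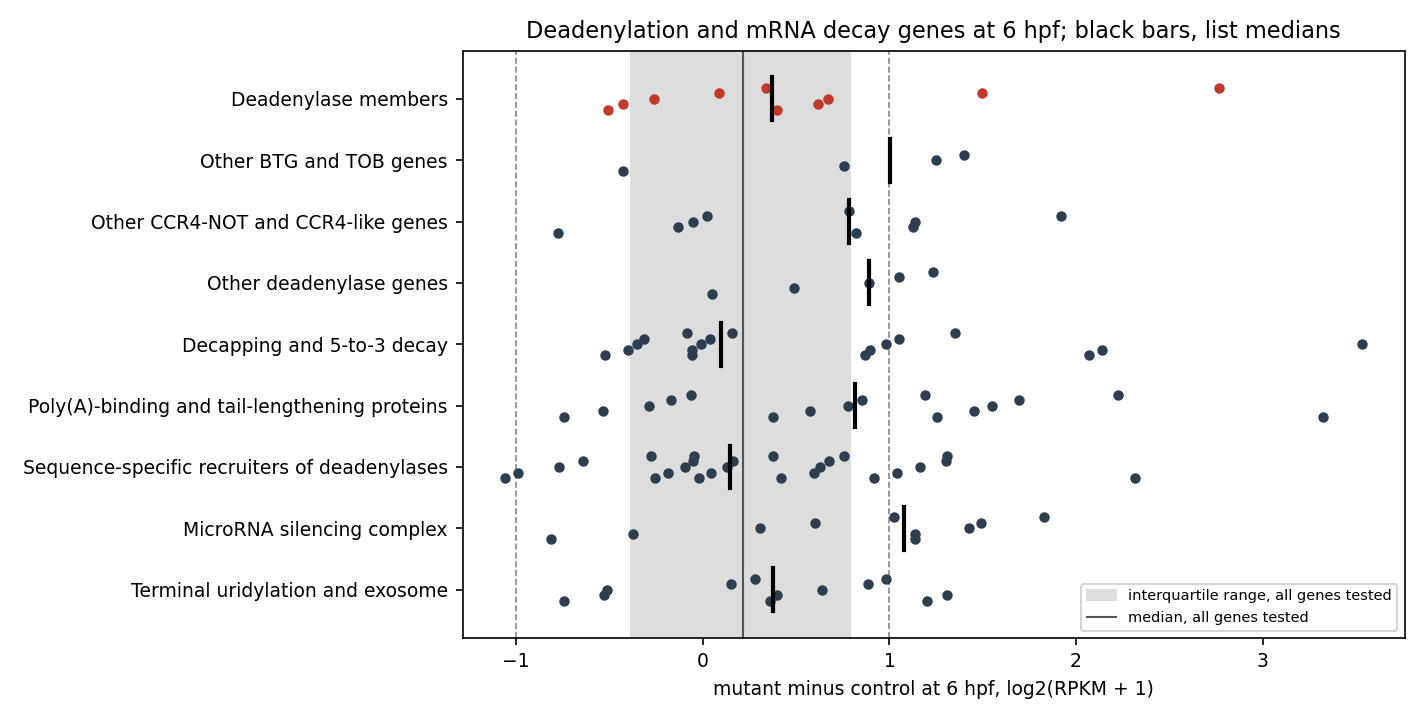
Mutant minus control difference in log2(RPKM + 1) at 6 hpf of the 10 genes described (red) and of 8 lists of other deadenylation and decay genes (dark points, 1 per gene), with list medians as black bars, the interquartile range of all genes tested in grey and the threshold of 1 as dashed lines. On the deposited scale 32 of the 100 list genes lie at or past 1 and 1 lies past -1, and with trimmed-mean rescaling 17 lie at or past 1 and 8 past -1.

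By their course over the 6 tables, the genes nearest to BTG4 included the egg RNAs cth1 and buc. Likeness was measured as the root-mean-square distance between profiles of log2(RPKM + 1), each centred on its own mean, over 8436 named genes that reached an RPKM of 5. The 5 nearest genes were cldng (0.24), cth1 (0.25), eloal (0.25), mid1ip1l (0.26) and buc (0.27), and the nearest member, cnot8, was at 1.09. Candidates far outnumber the other members, so some gene outside the group was nearly certain to lie closer. These distances are therefore a description. cth1 had 858, 650 and 143 RPKM in mutant embryos at 2, 4 and 6 hpf, and 1126, 495 and 27.9 RPKM in control embryos. For tob1a the nearest genes were PTGR2 (0.08), rfx3 (0.08), DNAJC25 (0.09), BECN1 (0.10) and REV3L (0.11), with cnot2 the nearest member at 0.23. The mean profile of the 7 CCR4-NOT subunits lay nearest to AMMECR1 (0.04), GID4 (0.04), MAGT1 (0.04), RB1CC1 (0.05) and IPO9 (0.05). A mean of 7 courses is flatter than most of them, and the distance from it to its nearest own subunit, cnot10, was 0.14.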

How the data were processed

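Per the labels' protocols, TRIzol-extracted RNA was selected for poly(A) on Dynabeads and turned into libraries with a stranded KAPA kit. The submitters' processing notes name cutadapt 1.13, Trimmomatic 0.36, HISAT2 2.0.5, SAMtools 1.9 and the build Zv9, without roles. How reads were counted, on which annotation and with which strand setting is not given in the sources used here. RPKM values were deposited by the authors in 6 tables, 1 value per gene for each genotype and age, which stands for 2 samples. Tables were matched to groups by genotype and hour.

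The members and gene lists were chosen with earlier results of these data known. A test across libraries had been planned; with 1 value per group it could not be run. Values were compared as log2(RPKM + 1) over 17053 of 33737 genes, those that reached an RPKM of 1 in any table, and a difference of at least 1 was called by size. Symbols came from a table that named 21939 of the IDs. All members are named; list genes are named when past the threshold or at a list's extremes, profile neighbours as the 5 nearest, and btg2, cnot9, cnot11, pan2, cnot6l, XRN1 and the CNOT4 ID that was not called as partners or copies of members or close to the threshold, chosen after their values were seen. No sequence is printed, and coordinates are not used here.

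Low RPKM values fall on a grid that a plain mean of 2 libraries gives. Exactly 1 gene length satisfied it for 7804 genes, against 0 genes after each value was moved at random by up to 0.5%. The depths of 37.8 to 73.0 M reads rest on that assumption and on starting step sizes found by inspection. The replicate spread could be recovered only where the 2 libraries together held 20 to 150 reads of a gene. For such genes the scaled median absolute deviation of the log2 ratio of both libraries was 0.81 to 1.16 by group, and 0.51 to 0.85 for those with 100 to 150 reads. It is unknown for the members, and replicate numbers cannot be tied to either library. The procedure was tested on simulated data built as plain means of 2 libraries, so that test does not bear on the plain-mean assumption itself.

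Alternatives were trimmed-mean rescaling (TMM, computed on the genes tested, with 30% of log ratios and 5% of levels trimmed), quantile normalization, division by the table's sum (TPM scale), a pseudocount of 0.1, no filter, a filter in 2 tables and a threshold of 0.5. Python 3.11.15, pandas 2.3.3 and numpy 2.4.6 were used.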

Additional observations from a re-analysis of the deposited data

How the results depend on the processing

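No paired analysis was possible because the tables hold 1 value for each genotype and age, and for the same reason no replicate could be left out. The counts of members called between genotypes were the same under trimmed-mean rescaling, quantile normalization, TPM scale, a pseudocount of 0.1, no filter and the filter in 2 tables. With a threshold of 0.5, 1 member was lower in mutant embryos at 2 hpf, 1 lower at 4 hpf, and 4 higher and 1 lower at 6 hpf. At 0.5, 10.9% of all genes were lower at 2 hpf and 16.3% at 4 hpf, and 36.7% were higher and 20.9% lower at 6 hpf. That threshold also gave, in mutant embryos, 1 member lower at 4 than at 2 hpf and 2 higher and 6 lower at 6 than at 4 hpf. Of the 17053 genes tested, 523 were lower there over the earlier interval, and 3497 were higher and 7096 lower over the later one. In control embryos the 0.5 threshold gave 2 members higher and 3 lower at 4 than at 2 hpf and 2 higher at 6 than at 4 hpf. In that last interval cnot10 (-0.70) joined the 5 members called lower in control embryos. Among all genes tested, 3301 were higher and 1988 lower in control embryos at 4 than at 2 hpf, and 4412 and 8599 at 6 than at 4 hpf. The shift of the genotype difference counted 2 higher and 1 lower between 2 and 4 hpf and 1 lower between 4 and 6 hpf at 0.5, and 1 higher between 2 and 4 hpf (cnot7) on the TPM scale or with a pseudocount of 0.1. At 0.5 cnot2 (0.54) also joined the 3 members that shifted towards higher between 4 and 6 hpf. Among all genes at 0.5, 1604 shifted higher and 2083 lower between 2 and 4 hpf, and 6316 and 3365 between 4 and 6 hpf. On the TPM scale 361 genes shifted higher between 2 and 4 hpf, and with a pseudocount of 0.1 607 did. Between 4 and 6 hpf, trimmed-mean rescaling gave 1 member higher in mutant embryos (cnot3a, 1.06), and 2 higher (cnot1, 1.29, and cnot3a, 1.38) and 2 lower in control embryos. Quantile normalization gave 1 higher in mutant embryos (cnot3a, 1.05), and 1 higher (cnot3a, 1.08) and 3 lower in control embryos. Among all genes, trimmed-mean rescaling gave 2779 higher and 1306 lower over that interval in mutant embryos, and 4783 and 3691 in control embryos. Quantile normalization gave 2302 and 1973 in mutant embryos, and 3965 and 4436 in control embryos. From 2 to 6 hpf in control embryos 2 members were higher with trimmed-mean rescaling, with quantile normalization and at 0.5. Over that span at 0.5, cnot2 (-0.77) and cnot10 (-0.79) joined the 4 members called lower in control embryos. In mutant embryos cnot8 (-0.97) joined the 2 called lower. Among all genes at 0.5, 5359 were higher and 8259 lower at 6 than at 2 hpf in control embryos, and 4092 and 6805 in mutant embryos. The cause was not tested. Some member differences changed sides of 0 under trimmed-mean rescaling, among them pan3 from 2 to 6 hpf in control embryos, -0.50 as deposited and 0.16 rescaled, and cnot6a in control embryos, -0.41 and 0.33 from 4 to 6 hpf and -0.07 and 0.61 from 2 to 6 hpf. The replicate spread at the members' depth is unknown, so no difference, called or not, can be set against it. Differences short of the threshold, such as those of pan3, cannot be separated from that spread or from 0.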

Other observations

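Genes of the later and neighbouring steps of mRNA decay were looked at through lists from the known steps of decay. These were chosen with earlier results of these data known, so their counts are a description. Over 8 lists with 100 genes tested, 32 were called higher in mutant embryos at 6 hpf and 1 lower, that is 32% and 1% beside 18.3% and 8.91% of all genes. At 2 hpf 4 were higher and 2 lower, and at 4 hpf 4 and 3. The median difference of the 100 genes at 6 hpf was 0.58, beside 0.22 over all genes tested. Trimmed-mean rescaling gave 17 higher and 8 lower of the 100, beside 13.8% and 15.9% of all genes, and quantile normalization gave 22 and 3, beside 14.9% and 13.5%. The TPM scale gave 34 and 2, beside 22.8% and 11.4%. With a pseudocount of 0.1 it was 39 and 3, beside 30.4% and 13.4%. The gap between the lists and all genes thus depends on the scaling and on the pseudocount. The counts given for a list below are to be read beside 18.3% and 8.91% of all genes. The rescaled counts are those of trimmed means, to be read beside 13.8% and 15.9%.

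Among 18 decapping and 5-to-3 decay genes, 5 were higher in mutant embryos at 6 hpf and 0 lower (rescaled, 3 and 0). The list's median was 0.10, below the 0.22 of all genes tested. LSM14B, a component of stored RNA particles, had 147 RPKM in mutant and 11.8 RPKM in control embryos. LSM1, part of the ring that binds deadenylated 3′ ends, was already higher in mutant embryos at 4 hpf, with 60.3 RPKM in mutant and 21.4 RPKM in control embryos, and had 27.8 and 5.55 RPKM at 6 hpf. At 6 hpf patl2 had 7.51 RPKM in mutant and 1.02 RPKM in control embryos, LSM4 had 93.1 and 35.9 RPKM, and lsm14aa had 43.6 and 20.5 RPKM. The exonuclease gene XRN1 had 34.2 RPKM in mutant and 16.8 RPKM in control embryos, just short of the threshold.

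Among 16 genes of poly(A)-binding and tail-lengthening proteins, 7 were higher at 6 hpf and 0 lower (rescaled, 5 and 1). TENT5C, a non-canonical poly(A) polymerase gene, had 81.0 RPKM in mutant and 7.20 RPKM in control embryos, and the embryonic poly(A)-binding gene pabpn1l had 62.0 and 12.5 RPKM. Of 26 genes for proteins that recruit deadenylases or protect RNA from them, 5 were higher and 1, an ID named ZFP36L1, was lower by -1.06 (rescaled, 2 and 4). The higher ones were cth1 with a difference of 2.31, the egg RNAs ZAR1 and ZAR1L with 1.31 each, YTHDF3 with 1.16 and DND1 with 1.04. Of 10 microRNA pathway genes 6 were higher and 0 lower (rescaled, 4 and 1). The list's median was 1.08, beside 0.22 over all genes tested. ago3a had 5.19 RPKM in mutant and 0.742 RPKM in control embryos, and TARBP2 had 99.5 and 36.3 RPKM. Of 12 uridylation and exosome genes 2 were higher and 0 lower (rescaled, 0 and 1), and these were DIS3L2 (1.31) and DIS3L (1.20).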
